A study of Homo sapiens with 6 samples.

Results

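Natural antisense long noncoding RNAs were followed across the knockdown of ZNF469, a zinc finger gene, in human dermal fibroblasts. They were taken by name: every gene whose symbol ends in -AS and a number, which is how the human nomenclature marks a noncoding RNA transcribed from the strand opposite a named gene, with a count of 10 or more in each of the 6 libraries. TUBA1B-AS1 was left out by the rule. Of 669 genes listed with such a name, 358 fell below the minimum in at least 1 library, 339 of them being listed at 0 in at least 1 library. This left 310 antisense RNAs of 21151 genes listed, and all 310 passed the filter on low counts that left 16353 genes for testing. The minimum used the counts themselves, so the levels of the 310 are a description.

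The cells were CCD-1064Sk (CRL-2076), a normal dermal fibroblast line, in which lines carrying the hairpins were established. The groups were shZNF469, labelled as a ZNF469 knockdown, with 3 libraries, and shControl, labelled as wild type and carrying a control short hairpin RNA, with 3 libraries. A short hairpin RNA is processed to a small interfering RNA that directs the breakdown of its target's messenger RNA. No source used here states the hairpin sequences or their number per group, so an effect of a single hairpin cannot be told apart from an effect of losing ZNF469. The labels describe the libraries as technical replicates, so p-values measure only the spread between these libraries.

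The libraries held 41318439 to 48298264 counts in shZNF469 cells and 35417366 to 46911355 counts in shControl cells. ZNF469 itself averaged 19.4 ± 1.77 CPM (the count scaled to library size) in shZNF469 cells and 42.0 ± 3.70 CPM in shControl cells (SD, n = 3 each), a log2 fold change of -1.12 (SE 0.09, edgeR adjusted p = 8.73e-04). All 9 fibroblast markers examined were listed, 1 called higher (VIM) and 3 lower (COL1A1, COL1A2 and COL3A1, with log2 fold changes of -1.75, -0.87 and -0.81), and their summed level was 23952 to 25368 TPM (the deposited per-length unit) in shZNF469 cells and 30912 to 33304 TPM in shControl cells. Of the markers of other cell types, PMEL was called higher (log2 fold change 1.01) and KRT10 lower (-0.51). Of 10 proliferation genes, 10 were called lower. In a bulk culture fewer cells of a kind and less RNA per cell cannot be told apart.

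An antisense RNA can act on its neighbour in several ways known from other systems. Its transcription can open or obstruct the promoter it shares with the sense gene, its RNA can pair with the sense transcript and change its splicing or stability, and some antisense RNAs leave the locus and bind microRNAs or proteins elsewhere. Many are made from a promoter that fires in both directions, so that sense and antisense levels may depend on the same stretch of DNA. Most are nuclear, short-lived and far less abundant than the genes they are named for.

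No source used here states the counting strand, and the kit named in the labels is not stated to keep strand. Where the exons of an antisense RNA and its sense gene cover the same bases, their reads cannot be told apart. Of the 310 antisense RNAs, 307 were found in GENCODE release 29, and 289 could be placed against the gene they are named for. GENCODE types 241 of the 307 as antisense, 31 as processed transcripts and 31 as lincRNA. It types 2 as bidirectional promoter RNAs and 2 as protein coding, so all are called antisense RNAs here by name only. Exons overlapped those of the sense gene for 213, 55 lay over introns only, 19 ran head to head with no overlap, LYRM4-AS1 lay tail to tail, and FAM131B-AS2 lay on the same strand as FAM131B. FAM131B-AS2 and LYRM4-AS1 are named here only because their class held 1 gene each. A median of 7.98% of an antisense RNA's exonic bases also lay in an exon of another listed gene. None of the exonic bases was shared for 76, and most were shared for 19.

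Promoter sequence was available from RefSeq (GRCh38.p14), as 250 bases before to 50 bases after the start, for 232 of the 310, and 187 pairs had a window for both the antisense RNA and its sense gene. In 64 of these pairs the windows overlapped, by 26 to 295 bases, so that both genes were read out of the same DNA in opposite directions. The pair KTN1-AS1 and KTN1 is shown because the antisense RNA was called higher while its sense gene was not called, and the pair DNAJC9-AS1 and DNAJC9 because the sense gene was called lower while the antisense RNA was not called. DNAJC9 encodes a histone-binding cochaperone, and KTN1 encodes kinectin, an anchor for kinesin on the endoplasmic reticulum. The windows lie at chr14:55580043-55580342 on the minus strand for KTN1-AS1, chr14:55579957-55580256 on the plus strand for KTN1, chr10:73247117-73247416 on the plus strand for DNAJC9-AS1 and chr10:73247206-73247505 on the minus strand for DNAJC9. Each is written 5′ to 3′ on its own strand, with the bases that both windows of a pair hold in capitals, 214 for the KTN1 pair and 211 for the DNAJC9 pair.
KTN1-AS1: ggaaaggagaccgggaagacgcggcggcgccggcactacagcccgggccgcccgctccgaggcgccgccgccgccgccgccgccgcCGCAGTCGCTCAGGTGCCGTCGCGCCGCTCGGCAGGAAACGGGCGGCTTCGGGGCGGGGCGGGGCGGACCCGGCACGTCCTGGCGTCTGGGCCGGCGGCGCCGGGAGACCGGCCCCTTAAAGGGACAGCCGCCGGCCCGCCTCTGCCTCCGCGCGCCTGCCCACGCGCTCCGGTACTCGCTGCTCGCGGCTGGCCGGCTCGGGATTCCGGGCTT
KTN1: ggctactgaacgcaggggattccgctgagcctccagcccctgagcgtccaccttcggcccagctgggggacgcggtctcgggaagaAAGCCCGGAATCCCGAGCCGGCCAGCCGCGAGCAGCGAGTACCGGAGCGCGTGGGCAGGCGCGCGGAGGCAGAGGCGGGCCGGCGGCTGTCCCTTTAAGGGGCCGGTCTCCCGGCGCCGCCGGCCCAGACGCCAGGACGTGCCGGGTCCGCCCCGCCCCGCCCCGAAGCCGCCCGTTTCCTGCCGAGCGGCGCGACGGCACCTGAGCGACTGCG
DNAJC9-AS1: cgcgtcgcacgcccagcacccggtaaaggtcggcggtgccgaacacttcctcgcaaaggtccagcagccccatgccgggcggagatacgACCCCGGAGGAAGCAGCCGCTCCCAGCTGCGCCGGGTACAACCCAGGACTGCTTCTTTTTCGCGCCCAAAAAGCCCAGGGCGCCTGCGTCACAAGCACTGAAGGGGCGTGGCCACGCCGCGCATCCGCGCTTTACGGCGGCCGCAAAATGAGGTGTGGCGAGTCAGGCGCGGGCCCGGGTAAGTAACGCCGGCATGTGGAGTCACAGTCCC
DNAJC9: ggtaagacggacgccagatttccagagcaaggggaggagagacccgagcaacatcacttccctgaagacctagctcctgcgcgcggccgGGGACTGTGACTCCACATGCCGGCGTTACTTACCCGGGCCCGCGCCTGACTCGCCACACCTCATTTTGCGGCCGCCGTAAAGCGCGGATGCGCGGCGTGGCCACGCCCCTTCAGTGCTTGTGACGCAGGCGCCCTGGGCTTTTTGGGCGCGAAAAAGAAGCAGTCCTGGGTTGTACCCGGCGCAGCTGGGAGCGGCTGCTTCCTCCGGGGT

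The antisense RNAs with the 3 lowest adjusted p-values, SLC9A3-AS1, SBF2-AS1 and ZNF337-AS1, are shown next because the results turn on them. Their windows lie at chr5:472986-473285, chr11:9758043-9758342 and chr20:25623795-25624094, all on the plus strand of GRCh38.p14. Capitals mark GGGCGG, the core of the GC box bound by Sp-family factors, on either strand, so that it also appears as CCGCCC.
SLC9A3-AS1: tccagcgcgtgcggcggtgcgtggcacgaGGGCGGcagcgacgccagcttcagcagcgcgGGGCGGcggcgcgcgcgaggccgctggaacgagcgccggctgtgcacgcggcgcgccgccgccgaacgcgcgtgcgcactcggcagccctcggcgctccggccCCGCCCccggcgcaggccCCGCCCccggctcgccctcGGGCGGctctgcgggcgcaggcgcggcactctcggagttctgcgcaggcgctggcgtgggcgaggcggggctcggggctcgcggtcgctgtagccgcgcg
SBF2-AS1: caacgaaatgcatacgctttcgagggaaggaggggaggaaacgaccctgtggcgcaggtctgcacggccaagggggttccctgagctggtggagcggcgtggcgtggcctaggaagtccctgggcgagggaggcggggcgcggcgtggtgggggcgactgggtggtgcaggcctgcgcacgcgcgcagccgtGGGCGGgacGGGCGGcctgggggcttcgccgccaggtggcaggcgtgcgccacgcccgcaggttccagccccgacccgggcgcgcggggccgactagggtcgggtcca
ZNF337-AS1: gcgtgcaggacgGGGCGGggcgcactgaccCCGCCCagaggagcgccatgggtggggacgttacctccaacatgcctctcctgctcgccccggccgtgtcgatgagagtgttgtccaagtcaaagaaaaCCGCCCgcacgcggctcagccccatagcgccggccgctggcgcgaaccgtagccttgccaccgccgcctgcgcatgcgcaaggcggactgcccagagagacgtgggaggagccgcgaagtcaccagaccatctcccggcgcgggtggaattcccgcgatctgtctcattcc
The SLC9A3-AS1 window held 5 such matches, the SBF2-AS1 window 2 and the ZNF337-AS1 window 3. GGGCGG or its reverse complement was present in 64.7% of the 232 windows of antisense RNAs, against 44.6% of 27305 windows of all genes in the RefSeq table. CCAAT, the core of the CCAAT box, was present in 31.5% of the antisense windows and 35.7% of all windows, both strands searched. TATAAA, the core promoter element bound by TBP, was present in 5.60% of the antisense windows and 12.0% of all windows. The sets are unlike: the antisense RNAs had met the count minimum in these cells, while the RefSeq windows were not filtered by expression. These shares therefore cannot be credited to antisense promoters as such, and the differences were not tested. A match is a stretch of letters in the window and shows no binding.

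Few antisense RNAs were called. At an adjusted p under 0.05 in edgeR's quasi-likelihood test over all genes, 10 of the 310 were called higher and 3 lower in shZNF469 cells, 4.19% in all, against 9.90% of all genes tested (4.56% higher and 5.34% lower). Of the 14518 genes tested that met the same count minimum, 10.7% were called. The CPM of the groups did not overlap for 79 antisense RNAs, 25.5% of them, against 31.4% of all genes tested. The counts of calls depended on single libraries: 2 were higher and 2 lower without shZNF469 library 1, 6 and 5 without shZNF469 library 2, 6 and 2 without shZNF469 library 3, 2 and 1 without shControl library 1, 3 and 2 without shControl library 2, and 3 and 1 without shControl library 3. At an unadjusted p under 0.05 there were 34 higher and 9 lower, or 13.9%, against 24.5% of all genes.

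The antisense RNAs were weakly counted. Their mean count over the libraries had a median of 90.9, against 660.3 over all genes tested, and the median SE of their log2 fold changes was 0.27, against 0.11. None of the 87 antisense RNAs with a mean count of 10 to 50 was called, and 0.0945% of all genes in that range were. Between 50 and 100 the share was 2.60% of 77, against 2.84% of all genes there. Between 100 and 300 it was 5.62% of 89, against 8.28%. Between 300 and 1000 it was 10.9% of 46, against 10.5%, and at 1000 or more it was 9.09% of 11, against 14.5%. These shares were not tested against each other, and an antisense RNA that was not called is not shown to be unchanged.

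Most fold changes were small. The log2 fold changes of the 310 ran from -1.09 to 1.25, with a median of 0.07 against 0.00 over all genes tested. They were above 0 for 180, or 58.1%, against 50.7% of all genes. A total of 5 antisense RNAs differed by 2-fold or more, and these were ZNF337-AS1 and SERTAD4-AS1, which were called, and ENTPD1-AS1, MRGPRF-AS1 and PKD1L1-AS1, which were not and are named after their values were seen. The groups of MRGPRF-AS1 and PKD1L1-AS1 did not overlap, but both had a mean count under 50 (log2 fold change 1.20 and SE 0.50 for MRGPRF-AS1, -1.07 and 0.54 for PKD1L1-AS1). ENTPD1-AS1, antisense to an ectonucleotidase gene, had 6.66, 6.17 and 1.65 CPM in shZNF469 cells, against 2.64, 1.89 and 2.22 CPM in shControl cells (adjusted p = 0.202). Library 3 of shZNF469 lay below every control, while the other shZNF469 libraries lay above them all. Without library 3 ENTPD1-AS1 was called (log2 fold change 1.51, edgeR adjusted p = 0.00926). No other alternative fit called it, with adjusted p from 0.183 in DESeq2 to 0.480 in edgeR without shZNF469 library 1. The summed level of all 310 was 1593 to 1783 TPM in shZNF469 cells and 1528 to 1687 TPM in shControl cells, and these ranges overlapped.

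**Figure D1:**
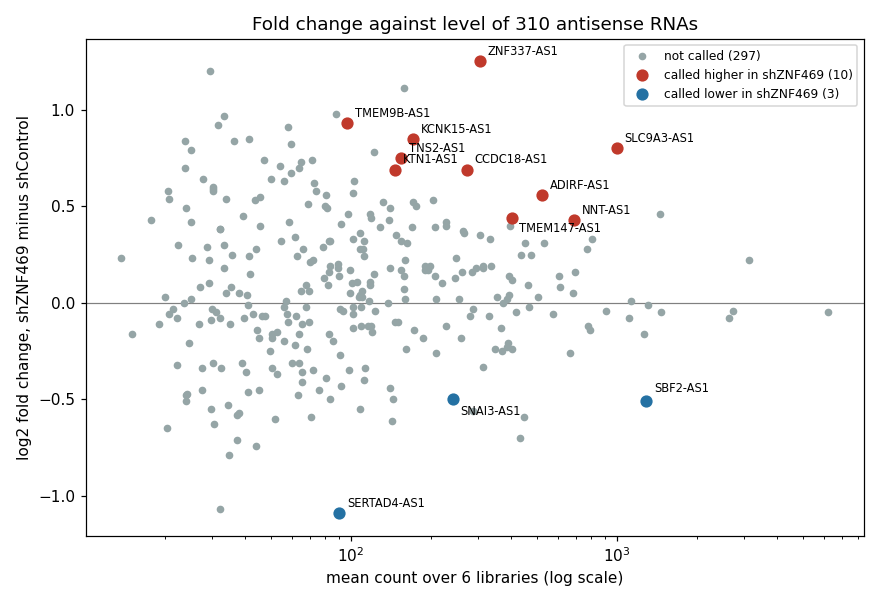
Log2 fold change (shZNF469 over shControl, vertical axis) of each of the 310 antisense RNAs against its mean count over the 6 libraries (horizontal axis, log scale). The 10 called higher and the 3 called lower are labelled, none of the 13 lies below a mean count of 50, and the scatter widens towards low counts.

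SLC9A3-AS1 had the strongest test of any antisense RNA higher in shZNF469 cells. Its sense gene encodes the sodium/proton exchanger NHE3. SLC9A3-AS1 lies at chr5:473236-480884 on the plus strand, with 19.3% of its exonic bases inside SLC9A3 exons. It had 31.6, 28.3 and 27.0 CPM in shZNF469 cells, against 15.5, 18.1 and 16.1 CPM in shControl cells. All 3 knockdown libraries lay well above all 3 controls, a 1.75-fold difference (log2 fold change 0.80, SE 0.09, edgeR adjusted p = 0.00255). The call held in every alternative fit. The sense gene SLC9A3 was not called, at 9.11 ± 0.721 CPM in shZNF469 cells and 11.0 ± 6.92 CPM in shControl cells (SD, n = 3 each, log2 fold change -0.27, edgeR adjusted p = 0.738). Without the first shControl library that fold change was 0.38, so a single control library set its sign. On the scale of TPM, which is per length, the antisense RNA was above its sense gene, with SLC9A3 at 3.77 TPM and SLC9A3-AS1 at 55.5 TPM in shZNF469 cells, and SLC9A3 at 4.68 TPM and SLC9A3-AS1 at 29.8 TPM in shControl cells.

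ZNF337-AS1 had the highest fold change of the called antisense RNAs. It is named for ZNF337, a zinc finger gene, and lies at chr20:25624045-25678074 on the plus strand. It had 11.8, 9.58 and 7.73 CPM in shZNF469 cells, against 3.31, 4.90 and 3.98 CPM in shControl cells. The groups did not overlap, and the difference was 2.38-fold (log2 fold change 1.25, SE 0.20, edgeR adjusted p = 0.0105). Of its exonic bases, 53.2% lie inside ZNF337 exons, the highest exonic sharing with any listed gene among the 13 called being 55.3% for this RNA. ZNF337 was not called, at 10.7 ± 1.21 CPM in shZNF469 cells and 11.2 ± 1.20 CPM in shControl cells (SD, n = 3 each, edgeR adjusted p = 0.806). Without the third shControl library the adjusted p of ZNF337-AS1 was 0.0515.

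KTN1-AS1, TMEM9B-AS1, TMEM147-AS1 and NNT-AS1 were called higher, and edgeR did not call their sense genes. KTN1-AS1, whose promoter window is shown above with that of KTN1, had 4.20, 4.34 and 3.81 CPM in shZNF469 cells, against 2.30, 3.03 and 2.33 CPM in shControl cells. It was 1.61-fold higher without overlap (log2 fold change 0.69, SE 0.16, edgeR adjusted p = 0.0425), while KTN1 stood at 208 ± 11.5 CPM in shZNF469 cells and 197 ± 3.04 CPM in shControl cells (SD, n = 3 each, edgeR adjusted p = 0.468). TMEM9B-AS1, named for a lysosomal membrane protein gene, had 3.51, 2.70 and 2.49 CPM in shZNF469 cells, against 1.32, 1.40 and 1.84 CPM in shControl cells. Every knockdown library again lay above every control (log2 fold change 0.93, SE 0.23, edgeR adjusted p = 0.0493), and TMEM9B had a log2 fold change of 0.04 (edgeR adjusted p = 0.775).

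TMEM147-AS1, named for an endoplasmic reticulum protein gene, had 11.2, 9.97 and 10.9 CPM in shZNF469 cells, against 7.78, 8.36 and 7.57 CPM in shControl cells. The groups were tight and apart, at 1.35-fold (log2 fold change 0.44, SE 0.09, edgeR adjusted p = 0.0301), with TMEM147 at a log2 fold change of 0.12 (edgeR adjusted p = 0.536). NNT-AS1, named for the mitochondrial proton-pumping transhydrogenase gene, had 16.5, 21.0 and 17.2 CPM in shZNF469 cells, against 13.8, 14.0 and 12.7 CPM in shControl cells. Its groups did not overlap either (log2 fold change 0.43, SE 0.11, edgeR adjusted p = 0.0485), and NNT had a log2 fold change of 0.02 (edgeR adjusted p = 0.875). The GENCODE starts of antisense and sense gene lie 336 bases apart for TMEM9B, 434 for TMEM147 and 538 for NNT. The calls of these 4 rested on the full set of libraries: TMEM9B-AS1 and NNT-AS1 lost theirs whichever of the 6 libraries was left out, KTN1-AS1 whichever was left out other than shControl library 2, and TMEM147-AS1 without shZNF469 library 1 or 3 or any 1 shControl library. Over all alternatives, which include fits other than those leaving out a library, the highest adjusted p was 0.519 for TMEM9B-AS1 and 0.231 for NNT-AS1. It was 0.132 for KTN1-AS1 and 0.150 for TMEM147-AS1.

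KCNK15-AS1 and TNS2-AS1 were called higher together with their sense genes. KCNK15 encodes a potassium channel of the tandem-pore family, and TNS2 encodes a tensin, which links integrins to actin. KCNK15-AS1 had 5.51, 4.48 and 5.22 CPM in shZNF469 cells, against 2.30, 2.44 and 3.69 CPM in shControl cells. Its groups did not overlap (log2 fold change 0.85, SE 0.21, edgeR adjusted p = 0.0447), and KCNK15 stood at 15.9 ± 1.92 CPM in shZNF469 cells and 9.71 ± 0.360 CPM in shControl cells (SD, n = 3 each, log2 fold change 0.72, edgeR adjusted p = 0.00793). TNS2-AS1 had 4.73, 3.71 and 4.85 CPM in shZNF469 cells, against 2.58, 3.06 and 2.25 CPM in shControl cells. These too did not overlap (log2 fold change 0.75, SE 0.18, edgeR adjusted p = 0.0421), with TNS2 at 199 ± 5.27 CPM in shZNF469 cells and 158 ± 5.51 CPM in shControl cells (SD, n = 3 each, log2 fold change 0.34, edgeR adjusted p = 0.00901). The antisense share of exonic bases inside sense exons was 4.65% for KCNK15-AS1 and 6.47% for TNS2-AS1. KCNK15-AS1 lost its call without any 1 shZNF469 library or the first or second shControl library, and TNS2-AS1 without shZNF469 library 1 or 3 or any 1 shControl library, with adjusted p-values up to 0.147 and 0.137 over all alternatives. TNS2 lost its call without shZNF469 library 1 (0.0501) or, by a narrow margin, shControl library 1, and on the authors' TPM (0.0624 and 0.0707).

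CCDC18-AS1 and ADIRF-AS1 were called higher while the estimates for their sense genes lay below 0 and were not called by edgeR. ADIRF encodes a factor that promotes fat cell differentiation, and CCDC18 encodes a coiled-coil protein. CCDC18-AS1 had 7.15, 8.98 and 6.96 CPM in shZNF469 cells, against 4.07, 5.22 and 4.97 CPM in shControl cells. The groups were apart (log2 fold change 0.69, SE 0.15, edgeR adjusted p = 0.0303), and CCDC18 had 2.89 ± 1.12 CPM in shZNF469 cells and 4.68 ± 0.469 CPM in shControl cells (SD, n = 3 each, log2 fold change -0.69, edgeR adjusted p = 0.200). DESeq2 called CCDC18 lower (adjusted p = 0.0469). ADIRF-AS1 had 13.5, 15.7 and 13.7 CPM in shZNF469 cells, against 8.87, 9.80 and 10.5 CPM in shControl cells. It was 1.47-fold higher without overlap (log2 fold change 0.56, SE 0.10, edgeR adjusted p = 0.0174), with ADIRF at a log2 fold change of -0.20 (edgeR adjusted p = 0.634). ADIRF-AS1 lost its call without the first shZNF469 library (adjusted p = 0.0569), without the first shControl library (0.0677) or without the second (0.0608). CCDC18-AS1 lost its call without shZNF469 library 1 or 2 or any 1 shControl library, with an adjusted p up to 0.143 over all alternatives.

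The 3 antisense RNAs called lower were SBF2-AS1, SERTAD4-AS1 and SNAI3-AS1. SBF2-AS1, named for a myotubularin-family gene that activates Rab proteins, lies at chr11:9758292-9811335 on the plus strand. It had 25.4, 24.8 and 24.9 CPM in shZNF469 cells, against 37.9, 35.5 and 33.5 CPM in shControl cells. The knockdown libraries were nearly equal and all below the controls (log2 fold change -0.51, SE 0.06, edgeR adjusted p = 0.00381). SBF2 was called in the other direction, at 125 ± 10.7 CPM in shZNF469 cells and 97.7 ± 3.22 CPM in shControl cells (SD, n = 3 each, log2 fold change 0.35, edgeR adjusted p = 0.0264). In edgeR it was the only pair of the 283 tested in which both genes were called in opposite directions, and 32.2% of the exonic bases of SBF2-AS1 lie inside SBF2 exons. SBF2 lost its call without shZNF469 library 1 (adjusted p = 0.107), without shControl library 1 (0.0838), 2 (0.0940) or 3 (0.108), and on the authors' TPM (0.149 and 0.162). On the authors' TPM the call of SBF2-AS1 was lost too, with an adjusted p up to 0.0996.

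SERTAD4-AS1, named for a SERTA-domain gene, had 1.50, 1.35 and 1.30 CPM in shZNF469 cells, against 2.95, 2.80 and 3.10 CPM in shControl cells. It was 2.13-fold lower without overlap (log2 fold change -1.09, SE 0.19, edgeR adjusted p = 0.0132). SERTAD4 moved the same way, at 6.48 ± 1.67 CPM in shZNF469 cells and 11.5 ± 0.558 CPM in shControl cells (SD, n = 3 each, log2 fold change -0.83, edgeR adjusted p = 0.0296). SNAI3-AS1, named for a Snail-family transcription factor gene, had 4.54, 4.96 and 4.58 CPM in shZNF469 cells, against 6.34, 6.60 and 7.03 CPM in shControl cells. It was 1.42-fold lower without overlap (log2 fold change -0.50, SE 0.10, edgeR adjusted p = 0.0264), and SNAI3 itself was near the bottom of the table, at 0.470 ± 0.0397 CPM in shZNF469 cells and 0.631 ± 0.179 CPM in shControl cells (SD, n = 3 each, edgeR adjusted p = 0.701). SERTAD4 lost its call when any library other than shZNF469 library 2 was left out (adjusted p from 0.0568 to 0.119) and on log2(TPM + 0.1) (0.0562). SERTAD4-AS1 lost its call without the first shControl library (adjusted p = 0.0561) or the third (0.0546), and SNAI3-AS1 without shZNF469 library 1 or 3 or any 1 shControl library, with an adjusted p up to 0.133 over all alternatives.

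**Figure D2:**
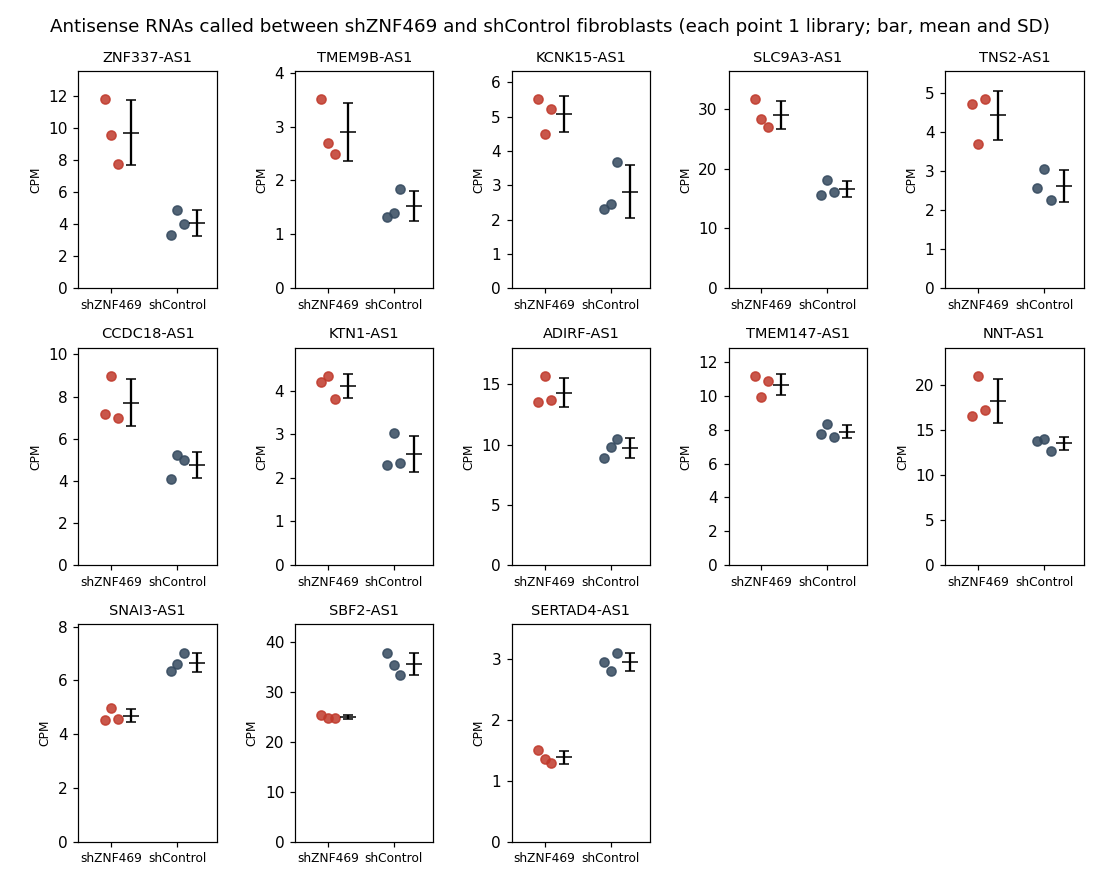
CPM per library of the 13 called antisense RNAs, 1 panel each, with shZNF469 to the left of shControl. Points are libraries, and the bars give the mean and SD of 3. In each panel the 2 groups do not overlap.

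The unit, the filter and a fit with the replicate number as a block also ended some of these calls. On the authors' TPM, tested with limma, KTN1-AS1, TMEM9B-AS1, TMEM147-AS1, NNT-AS1, CCDC18-AS1 and SNAI3-AS1 were not called, nor was SBF2-AS1. With no filter on low counts KTN1-AS1, TMEM9B-AS1, NNT-AS1, KCNK15-AS1 and TNS2-AS1 were not called. With the replicate block KTN1-AS1, TMEM9B-AS1, TMEM147-AS1, NNT-AS1, KCNK15-AS1, TNS2-AS1 and SNAI3-AS1 were not called. Each of the 13 kept its direction in these fits.

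The ratio of antisense to sense counts within a library carries no depth. It did not overlap between groups in 10 of the 13 called pairs and overlapped for KCNK15, SERTAD4 and SNAI3. The 13 were picked by their antisense calls, and the CPM of all 13 antisense RNAs already stood apart between groups. Where the sense gene was flat, a ratio without overlap follows from that choice. The share over all tested pairs is not given. An exact two-sided permutation test over 3 against 3 libraries cannot go below p = 0.1, so these ratios are a description. For SBF2 the ratio was 0.202 ± 0.0177 in shZNF469 cells and 0.364 ± 0.0103 in shControl cells (SD, n = 3 each). For ZNF337 it was 0.925 ± 0.300 in shZNF469 cells and 0.362 ± 0.0621 in shControl cells. For KCNK15 it was 0.319 ± 0.0233 in shZNF469 cells and 0.288 ± 0.0684 in shControl cells. The KCNK15 ratios overlapped between groups, and those of SBF2 and ZNF337 did not.

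Across all pairs, antisense and sense changes correlated weakly. A sense gene was listed for 293 antisense RNAs, and 283 pairs had both genes tested, with 282 distinct sense genes. Of these sense genes 23 were called higher and 11 lower, 12.1%, against 9.90% of all genes. Of all genes with a mean count of 1000 or more, 14.5% were called. Leaving out shZNF469 library 1 gave 6 higher and 3 lower, shControl library 1 gave 5 and 4, shControl library 2 gave 9 and 4, and shControl library 3 gave 9 and 3, while without shZNF469 library 3 there were 5 lower. The sense genes had a median mean count of 1298, and the median ratio of antisense to sense TPM was 0.146. The antisense RNA had the higher TPM in 45 pairs. Both genes were called in 4 pairs (KCNK15, SERTAD4, TNS2 and SBF2), only the antisense RNA in 9, only the sense gene in 30 and neither in 240. The signs were the same in 160 pairs, or 56.5%. Over the 283 pairs Pearson's r of the log2 fold changes was 0.13 and Spearman's rho 0.14, given as a description since all pairs share the 6 libraries and overlapping pairs may share reads.

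**Figure D3:**
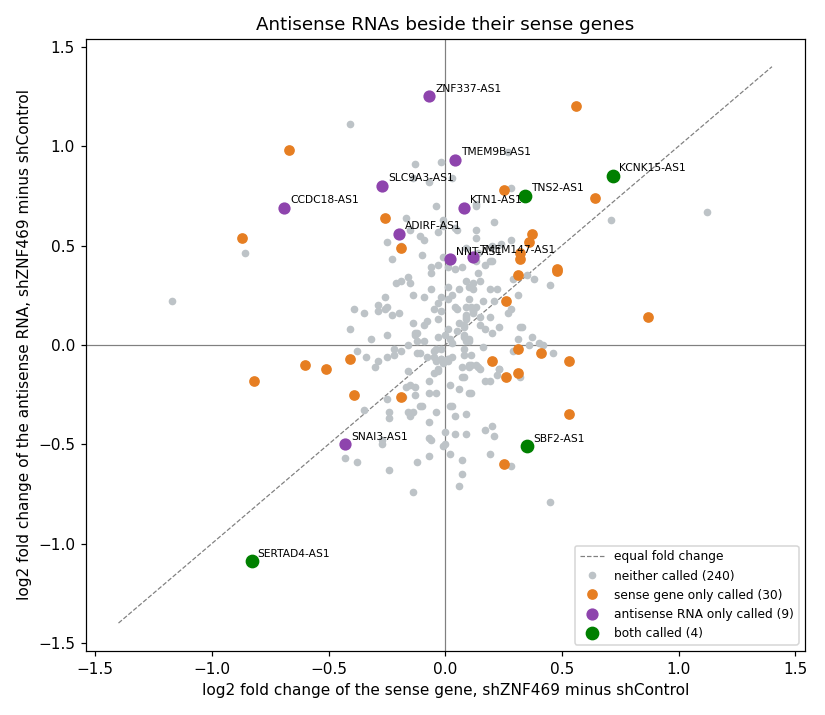
Log2 fold change of each antisense RNA (shZNF469 over shControl) against that of its sense gene, for 283 pairs, coloured by which of the 2 was called. The 4 pairs with both called include 3 in the same direction and SBF2 in the opposite one, and the cloud shows little slope (Pearson's r 0.13).

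The 13 called antisense RNAs all lay in the class whose exons overlap the sense gene, which held 208 of the 283 tested pairs. None was called among 51 pairs over introns only or 19 head-to-head pairs. Calls were few throughout, at 4.19% of the 310 antisense RNAs against 9.90% of all genes tested. The share of 4.19% includes the classes with 0 calls, and whether the classes differ was not tested. In the 98 pairs whose starts lie within 1000 bases on opposite strands, 4 antisense RNAs were called higher and 0 lower by edgeR, and Pearson's r was 0.25. In the 180 pairs with starts farther apart, 6 were called higher and 3 lower, and r was 0.10. In the 64 pairs with overlapping promoter windows, 3 antisense RNAs were called higher and 0 lower, 4 sense genes were called higher and 2 lower, and r was 0.15. By exonic sharing, r was 0.18 and rho 0.12 for the 57 pairs sharing 20% or more of exonic bases. For the 59 pairs sharing none with any listed gene, r was 0.15 and rho 0.18. In those 59 pairs 0 antisense RNAs were called higher and 0 lower by edgeR, against 4.19% of the 310. Each of the 13 called shared exonic bases with a listed gene, from 1.91% to 55.3% of them. Reads from the shared bases cannot be assigned to a strand here, and their part in the calls was not tested.

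Of the 30 sense genes called without their antisense RNA, 20 were higher and 10 lower. The antisense estimate had the same sign in 12 of the 20 and in 6 of the 10, against 56.5% of all 283 pairs. The sense genes called with a change of 1.5-fold or more, a rule set after their values were seen, numbered 8, and the antisense RNA was called in 2 of those pairs, KCNK15 and SERTAD4.

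KIF23, a mitotic kinesin, and OIP5, which helps load centromeric histone, belong to the cell cycle. KIF23 was called lower (log2 fold change -0.82, edgeR adjusted p = 0.00228), and KIF23-AS1 had 0.750, 0.585 and 1.70 CPM in shZNF469 cells, against 1.46, 1.34 and 0.642 CPM in shControl cells. These ranges overlapped (log2 fold change -0.18, edgeR adjusted p = 0.888). OIP5-AS1, also known as Cyrano, had 74.4, 90.9 and 67.4 CPM in shZNF469 cells, against 68.2, 68.1 and 62.9 CPM in shControl cells (log2 fold change 0.22, edgeR adjusted p = 0.265), while OIP5 had a log2 fold change of -1.17 (edgeR adjusted p = 0.108). Neither gene of the OIP5 pair was called by edgeR, and DESeq2 called OIP5 lower (adjusted p = 0.0202). The part of the lower proliferation genes in these values was not tested.

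DNAJC9, whose promoter window is shown above, had 8.23, 6.52 and 7.75 CPM in shZNF469 cells, against 11.6, 9.63 and 13.0 CPM in shControl cells (log2 fold change -0.60, edgeR adjusted p = 0.0402). Its call was lost when any library other than shControl library 2 was left out (adjusted p from 0.0856 to 0.128). DNAJC9-AS1 had 1.46, 1.27 and 1.21 CPM in shZNF469 cells, against 1.35, 1.32 and 1.55 CPM in shControl cells, and these overlapped (log2 fold change -0.10, SE 0.27, edgeR adjusted p = 0.880). GLIPR1, a secreted-protein family gene, was called lower (log2 fold change -0.87, edgeR adjusted p = 0.00249), with GLIPR1-AS1 at a log2 fold change of 0.54 (SE 0.56, edgeR adjusted p = 0.640). MELTF, a transferrin-family gene, was called higher (0.64, edgeR adjusted p = 0.00318), with MELTF-AS1 at 0.74 (SE 0.28, edgeR adjusted p = 0.151). BAALC was called higher (0.87, edgeR adjusted p = 6.87e-04), with BAALC-AS1 at 0.14 (SE 0.11, edgeR adjusted p = 0.509).

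Among the 10 most abundant antisense RNAs, 1 was called, against 9.90% of all genes tested. At a mean count of 1000 or more, 9.09% of 11 antisense RNAs and 14.5% of all genes were called. A count over 10 genes does not set the abundant antisense RNAs apart. FGD5-AS1, a broadly expressed RNA, was the highest, at 142 ± 9.78 CPM in shZNF469 cells and 147 ± 10.2 CPM in shControl cells (SD, n = 3 each, log2 fold change -0.05, edgeR adjusted p = 0.745). The 10 with the highest mean CPM were FGD5-AS1, OIP5-AS1, TBX5-AS1, MAGI2-AS3, MZF1-AS1, VIM-AS1, THAP9-AS1, SBF2-AS1, WAC-AS1 and NUTM2A-AS1, and only SBF2-AS1 of these was called. MAGI2-AS3 had 54.4, 68.1 and 55.7 CPM in shZNF469 cells, against 63.7, 65.8 and 59.6 CPM in shControl cells (log2 fold change -0.08, edgeR adjusted p = 0.671). Its ranges overlapped, while MAGI2, a scaffold protein gene, was called higher (log2 fold change 0.53, edgeR adjusted p = 0.0130). The MAGI2 call was lost without shZNF469 library 1 (0.0632), without shControl library 1 (0.0642), 2 (0.0582) or 3 (0.0510), and on the authors' TPM (0.0731 and 0.0750).

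VIM-AS1, antisense to the gene of the intermediate filament vimentin, varied most among these 10. It had 71.1, 17.3 and 28.0 CPM in shZNF469 cells, against 33.5, 26.8 and 24.5 CPM in shControl cells. The shZNF469 libraries held both the highest and the lowest value (log2 fold change 0.46, SE 0.46, edgeR adjusted p = 0.635), and without the first shZNF469 library the log2 fold change was -0.33. VIM was called higher, at a log2 fold change of 0.32 (edgeR adjusted p = 0.0146), a call lost without shZNF469 library 1 (0.0720), shControl library 1 (0.0617) or shControl library 2 (0.0570).

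**Figure D4:**
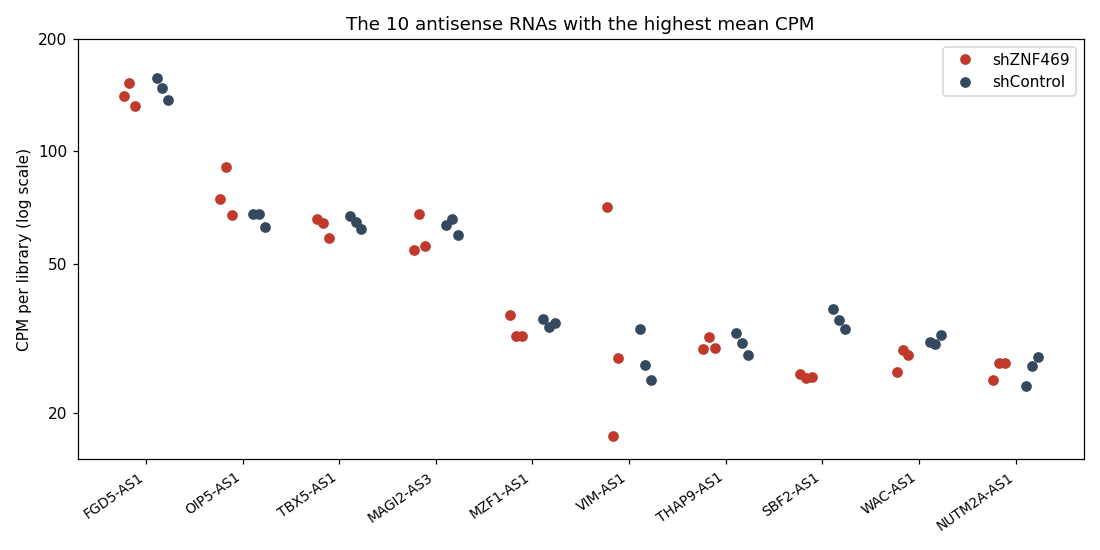
CPM per library, on a log axis, of the 10 antisense RNAs with the highest mean CPM, with shZNF469 to the left of shControl for each. The groups stand apart for SBF2-AS1 and for WAC-AS1, which was not called (edgeR adjusted p = 0.194), and VIM-AS1 is spread most widely.

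A list of antisense RNAs studied in their own right was also followed. It was chosen with earlier results of these data known, so its share called and its median are a description. Of 19 such names, 16 were listed and 13 met the count minimum, and of these NNT-AS1 and SLC9A3-AS1 were called higher, 0 were called lower and 11 were not called, a share of 15.4% of 13 against 9.90% of all genes tested, with a median log2 fold change of 0.14 against 0.00 over all genes tested. ZEB1-AS1, antisense to a transcription factor of the epithelial-mesenchymal transition, had 4.73, 4.01 and 5.41 CPM in shZNF469 cells, against 4.60, 3.78 and 4.04 CPM in shControl cells. The ranges overlapped (log2 fold change 0.19, edgeR adjusted p = 0.536). GAS6-AS1 had a log2 fold change of 0.28, MAPKAPK5-AS1 of 0.14, MCM3AP-AS1 of 0.58, DLGAP1-AS1 of -0.15, PSMA3-AS1 of -0.06, EPB41L4A-AS1 of 0.03 and ZNF667-AS1 of 0.04, none of them called.

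Antisense RNAs named for extracellular matrix, TGF-beta and contractile genes were followed because the series title names matrix production. Of 22 such names 6 were listed and 5 met the minimum. In edgeR 0 of the 5 were called (against 9.90% of all genes) and 2 had an unadjusted p under 0.05, ITGA9-AS1 and MMP25-AS1, of which DESeq2 called MMP25-AS1. A count over 5 genes does not show that such antisense RNAs were unchanged. LOXL1-AS1, antisense to an elastin cross-linking oxidase gene, had 16.2, 16.9 and 19.6 CPM in shZNF469 cells, against 19.6, 20.9 and 17.7 CPM in shControl cells. The ranges overlapped (log2 fold change -0.14, edgeR adjusted p = 0.447), while LOXL1 was called higher (0.31, edgeR adjusted p = 0.0477). The LOXL1 call was lost when any library other than shZNF469 library 2 was left out (0.101 to 0.156). It was also lost with no filter (0.0503), with the replicate block (0.0550) and on log2(TPM + 0.1) (0.0533). MMP25-AS1 had 5.76, 6.54 and 5.49 CPM in shZNF469 cells, against 4.21, 4.80 and 4.49 CPM in shControl cells, which did not overlap and did not pass (log2 fold change 0.40, edgeR adjusted p = 0.0855, DESeq2 adjusted p = 0.0364). ITGA9-AS1 had a log2 fold change of -0.40 (edgeR adjusted p = 0.184), MYLK-AS1 of -0.55 (0.424) and THBS3-AS1 of 0.04 (0.929). Among 11 antisense names of the HOX clusters 6 were listed and only HOXB-AS1 met the minimum, with a log2 fold change of 0.73 (edgeR adjusted p = 0.344).

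Other noncoding genes, picked by name and the same count minimum, are given beside them. Of 135 divergent transcripts named -DT, 4 were called higher and 1 lower (3.70%), with a median log2 fold change of 0.05. Of 116 intergenic RNAs named LINC, 1 was called higher and 2 lower (2.59%), with a median of 0.00. Of 44 host genes of small RNAs, 1 was called higher and 3 lower (9.09%), with a median of -0.05. These shares stand beside 4.19% for the antisense RNAs, 9.90% for all genes tested and 10.7% for all genes with the same count minimum. The differences were not tested.

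The count minimum set which antisense RNAs were described. Just inside it, SGSM2-AS1 had 41, 39 and 11 counts in shZNF469 cells, against 10, 26 and 23 in shControl cells. TAPT1-AS1 had 16, 25 and 17 counts in shZNF469 cells, against 18, 28 and 10 in shControl cells, and MCPH1-AS1 had 15, 42 and 10 in shZNF469 cells, against 12, 16 and 49 in shControl cells. The 3 nearest outside each had a lowest count of 9. TTC39C-AS1 had 24, 39 and 41 counts in shZNF469 cells, against 9, 27 and 21 in shControl cells. PPP1R14B-AS1 had 30, 9 and 30 in shZNF469 cells, against 18, 57 and 25 in shControl cells, and RPL26L1-AS1 had 33, 32 and 77 in shZNF469 cells, against 9, 44 and 18 in shControl cells. The groups overlapped for each of these 6. TUBA1B-AS1, left out by name, had 549, 672 and 1807 counts in shZNF469 cells, against 3114, 4854 and 4489 in shControl cells.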

How the data were processed

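RNA-seq of 6 libraries was used. The authors deposited, in a single table, a raw count and a TPM value per gene and library. HISAT2, StringTie and GRCh38.p14 are named in the submitters' processing notes without versions, while no source used here states the annotation release, strand setting or filters. The labels name the NEBNext Ultra kit. The lowest deposited TPM value above 0 was 0.333 to 0.456 by library, so a gene listed at 0 may be a low one.

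From the counts, genes were kept by edgeR's filterByExpr (minimum count 10), scaled by TMM and tested with the quasi-likelihood test (edgeR 4.0.16, limma 3.58.1, R 4.3.3), with Benjamini-Hochberg adjustment over 16353 genes and a threshold of 0.05. CPM used TMM-scaled library sizes, fold changes are shZNF469 over shControl, and expression values are mean ± SD. The fit was tested on simulated data. Named genes were those called, the 10 most abundant, those on the lists given in the text, their sense genes and those nearest the count minimum. The members and lists were chosen with earlier results of these data known.

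Sense genes were matched by the symbol before -AS. Positions come from GENCODE release 29 by gene ID, and promoter windows from RefSeq (GRCh38.p14) by symbol. DESeq2 (1.42.0), RLE scaling, no filter, log2(TPM + 0.5) and log2(TPM + 0.1) with limma, leaving out each library, other count minimums and a replicate block were tried as alternatives. A result on another pair is not reported here.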

Additional observations from a re-analysis of the deposited data

How the results depend on the processing

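Counts of calls depended on the processing, while the sign of all 13 called antisense RNAs was kept in the 12 alternative fits. DESeq2 called 23 antisense RNAs higher and 6 lower, the 13 among them. Of the 14431 genes to which DESeq2 gave an adjusted p, it called 11.2% higher and 11.3% lower. Without a filter on low counts 5 were called higher. On log2(TPM + 0.5), and likewise on log2(TPM + 0.1), 5 were called higher and 1 lower. Leaving out 1 library at a time gave 2 to 6 higher and 1 to 5 lower. A count of 100 or more in all libraries left 6 higher. For sense genes DESeq2 gave 43 higher and 31 lower, log2(TPM + 0.5) gave 8 higher, log2(TPM + 0.1) gave 7 higher and 6 lower, and leaving out 1 library gave 5 to 23 higher and 3 to 11 lower. For all genes tested, 745 higher and 874 lower became 1622 and 1624 with DESeq2, over the 14431 genes it gave an adjusted p. The counts were 222 and 512 on log2(TPM + 0.5), and 191 and 462 on log2(TPM + 0.1). Leaving out 1 library gave 204 to 769 higher and 333 to 854 lower. Dropping a library removes replicates, and the cause of the other shifts was not tested.

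The replicate numbers do not pair the libraries: deviations from the group mean correlated at -0.0226, 0.0759 and 0.0334 for numbers 1, 2 and 3. With the replicate block 4 antisense RNAs were called higher and 3 lower, 6 of them among the 13.

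Some estimates that no fit called changed sign. On log2(TPM + 0.5) and log2(TPM + 0.1) these were MZF1-AS1 (0.04 and 0.04), NUTM2A-AS1 (-0.04 and -0.04), TBX5-AS1 (0.04 and 0.04), THAP9-AS1 (0.05 and 0.05), THBS3-AS1 (-0.05 and -0.06), MYLK (-0.12 and -0.12), NNT (-0.03 and -0.04), MCPH1 (0.02 and 0.02). Leaving out 1 library at a time moved the log2 fold change between -0.26 and 0.01 for DLGAP1-AS1, -0.12 and 0.13 for EPB41L4A-AS1, -0.11 and 0.00 for FGD5-AS1, -1.20 and 0.48 for MCPH1-AS1, -0.05 and 0.06 for NUTM2A-AS1, -0.21 and 0.04 for PSMA3-AS1, -0.38 and 0.13 for TAPT1-AS1, -0.08 and 0.01 for TBX5-AS1, -0.06 and 0.05 for THAP9-AS1, -0.07 and 0.16 for THBS3-AS1, -0.33 and 0.82 for VIM-AS1, -0.03 and 0.08 for ZNF667-AS1, -0.15 and 0.02 for ZNF337, -0.01 and 0.09 for MCM3AP, -0.52 and 0.38 for SLC9A3, 0.00 and 0.05 for MYLK, -0.01 and 0.08 for NNT, -0.18 and 0.09 for MCPH1, -0.01 and 0.30 for THAP9, 0.00 and 0.09 for TMEM9B, -0.01 and 0.24 for MZF1. The depth limit falls on the low counts: antisense RNAs under a mean count of 50 had a median SE of 0.52.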

Other observations

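Among antisense RNAs below the count minimum, 4 were listed at 0 in all shControl libraries and passed the filter only through shZNF469 libraries. They were PLBD1-AS1 with 53, 29 and 39 counts in shZNF469 cells, PRDM8-AS1 with 24, 40 and 32, SMIM15-AS1 with 27, 20 and 43, and UBAC2-AS1 with 28, 22 and 10. The filter was passed through the group where they were high, so their edgeR calls are not counted as results. A gene listed at 0 may be a low one, as the lowest TPM above 0 was 0.342 to 0.456 in shControl libraries. SPTBN1-AS2, with 8, 8 and 7 counts in shZNF469 cells, was also listed at 0 in all shControl libraries. In the other direction, FOXC2-AS1 with 5, 15 and 14 counts in shControl cells and MYL12-AS1 with 10, 10 and 11 were listed at 0 in all shZNF469 libraries. Over all genes, 3051 to 3870 were listed at 0 by library in shZNF469 cells and 3305 to 4384 in shControl cells, and the part of depth in this pattern was not tested. No fold is given against a group listed at 0. TUBA1B-AS1, left out by name, had a log2 fold change of -2.16 (SE 0.48, edgeR adjusted p = 0.0338), a call lost when any library other than shZNF469 library 3 was left out (0.0784 to 0.104).

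AGAP2-AS1 had the widest spread between libraries of the antisense RNAs with a mean count of 300 or more. It had 2.68, 2.14 and 19.1 CPM in shZNF469 cells, against 2.55, 14.6 and 21.3 CPM in shControl cells, so that libraries of both groups fell at either end and the groups overlapped.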
